A study of Homo sapiens with 3 samples.

Results

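The zinc finger gene clusters of human chromosome 19, defined by position alone, were examined for binding by HA-PSF-TFE3, a tagged fusion protein. The members were all ChIP-seq peak summits on that chromosome whose start coordinate lay in 1 of 4 intervals of the build hg19: 19900000 to 24500000 (band 19p12), 37000000 to 38400000 (19q13.12), 44300000 to 45000000 (19q13.31) and 52000000 to 59100000 (19q13.4). There were 151 members among the 44983 summits of replicate 8 and 83 among the 28084 of replicate 9, or 234 of 73067 in all. They made up 9.02% and 8.20% of the chromosome 19 summits, 151 of 1674 and 83 of 1012, while the intervals made up 24.7% of the chromosome's length, counted without its longest stretch that held no summit.

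The series profiles where the fusion of SFPQ (also called PSF) with the transcription factor TFE3 binds in HK-2, an immortalized human cell line from the proximal tubule of the kidney. An HA tag on the fusion was captured with an anti-HA matrix after 24 h in 0.2 µg/ml doxycycline, which switches on the transgene. The single ChIP group held 2 libraries, replicates 8 and 9, described by the study as independent clones, and the authors called peaks against 1 library of input DNA from induced cells. All libraries came from doxycycline-treated cells that also carry their own TFE3, and the series text names PRCC-TFE3 in one place, where the titles and labels name PSF-TFE3. A summit is the base of highest enrichment in a peak, and its score is −log10 of the q-value that the authors' peak caller gave it, so that a score of 1.30 is a q-value of 0.05.

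Zinc finger (ZNF) genes of the C2H2 type encode DNA-binding proteins, many of which carry a KRAB domain that recruits TRIM28 and silences transposable elements by H3K9 methylation. They arose by repeated tandem duplication, and the ZNF genes of chromosome 19 are known to lie in chromatin rich in H3K9me3 in many cell types. TFE3 is a basic helix-loop-helix leucine zipper factor that binds E-boxes, with CACGTG as the core of its preferred site, at lysosomal and autophagy genes. In RefSeq's gene order (assembly GRCh38.p14), 265 of the 1451 protein-coding genes of chromosome 19 (18.3%) had a zinc finger family symbol (ZNF, ZFP, ZSCAN, ZKSCAN, ZIM or ZIK with a number), and these were 46.6% of the 569 such genes in the genome. Of the 265, 149 (56.2%) stood in 8 runs of 10 or more neighbouring genes with no other protein-coding gene between them, and 116 stood outside such runs. The longest, from ZNF737 to ZNF681, held 27 genes, among them ZNF91, a known repressor of SVA retrotransposons, and belongs to 19p12. The run of 24 genes from ZNF565 to ZNF793 belongs to 19q13.12, and that of 20 from ZNF283 to ZNF180 to 19q13.31. The 3 next runs lie on 19q13.4, from ZNF577 to ZNF836 with 10 genes, from ZNF766 to ZNF83 with 10, and from ZNF772 to ZNF256 with 23. The 2 others, from ZNF699 to ZNF846 with 11 genes and from ZNF627 to ZNF791 with 24, belong to 19p13.2, which is outside the 4 intervals. Bands are background knowledge. The genome at hand was GRCh38, so summits were not assigned to genes and coordinates were not converted.

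The sequence of zinc finger gene promoters was therefore described apart from the summits. RefSeq promoters, from 250 bases before to 50 after the gene start, were matched for 229 of the 265 genes. The letters CACGTG, which read the same on both strands, were present in 10 of the 229 (4.37%, 95% Wilson interval 2.39 to 7.85%) and in 84 of 956 promoters of the other protein-coding genes of the chromosome (8.79%, 7.15 to 10.8%). The difference was -4.42 percentage points (95% Newcombe interval -7.21 to -0.57), and the share over all 15843 promoters was 8.88%. Zinc finger promoters of the other chromosomes had CACGTG in 14 of 249 (5.62%, 3.38 to 9.22%), an interval that overlapped the chromosome 19 one. A low share can thus not be called particular to chromosome 19. The 229 promoters were not limited to the 4 intervals. For the related letters CATGTG on either strand the shares were 5.24% (12 of 229) and 7.74% (74 of 956), and the interval of the difference, -5.40 to 1.50 points, included 0. Intervals for shares cover counting error only, and duplicated genes are not independent. A match of letters is not a binding site.

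The 10 promoters are shown here because they are the zinc finger gene promoters of the chromosome that hold the core E-box. Each line gives 30 bases, 5′ to 3′ on the gene's strand, with the E-box in capitals, from RefSeq on GRCh38.p14.
ZNF507, chr19:32345597-32345626, plus strand: ccacccgcggctCACGTGatccgtccccag
ZNF565, chr19:36215164-36215193, minus strand: ctactttcgcgcCACGTGgacccaggggcc
ZNF296, chr19:45076491-45076520, minus strand: gggcccggccagCACGTGtaagagttcgcg
ZNF577, chr19:51888172-51888201, minus strand: gatctagcagttCACGTGgactggaaaaag
ZNF460, chr19:57279875-57279904, plus strand: acgggaagtccaCACGTGgcgaacgcgaag
ZNF587B, chr19:57830237-57830266, plus strand: atttcctgtgtgCACGTGacaatgggtccg
ZNF587, chr19:57849805-57849834, plus strand: agaaggcatttcCACGTGtgcacgtaacgt
ZNF814, chr19:57889065-57889094, minus strand: gtttcctgtgtgCACGTGacaatgggtccg
ZSCAN18, chr19:58118607-58118636, minus strand: ctcaaggcagccCACGTGcgctcccggcgt
ZNF324, chr19:58466978-58467007, plus strand: acaggcgggaacCACGTGacccggaaggct

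In all 10 the E-box began upstream of the gene start, from 1 to 238 bases before it. The ZNF587B and ZNF814 stretches differed at 1 of 30 bases. Of the 10 genes, 5 stand in a run named above (ZNF565, ZNF577, ZNF587B, ZNF587 and ZNF814).

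The first question was whether the fusion bound the clusters as densely as the rest of the chromosome. The clusters held 10.9 summits per Mb in replicate 8 (151 in 13.8 Mb, 95% exact Poisson interval 9.27 to 12.8) and 6.01 in replicate 9 (83, 4.79 to 7.46). The rest of chromosome 19, 42.1 Mb without the summit-free stretch, held 36.2 per Mb (1523 summits, 34.4 to 38.0) and 22.1 per Mb (929, 20.7 to 23.5). The clusters were thus sparser in both libraries, and their intervals did not come near those of the rest. The ratio of densities was 0.303 in replicate 8 (95% exact interval 0.254 to 0.358) and 0.273 in replicate 9 (0.215 to 0.342), a mean of 0.288 ± 0.021 (SD, n = 2). With 1 group of 2 libraries and neighbouring summits that are not independent, no p-value was computed, and the Poisson and exact intervals cover counting error only.

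**Figure D1:**
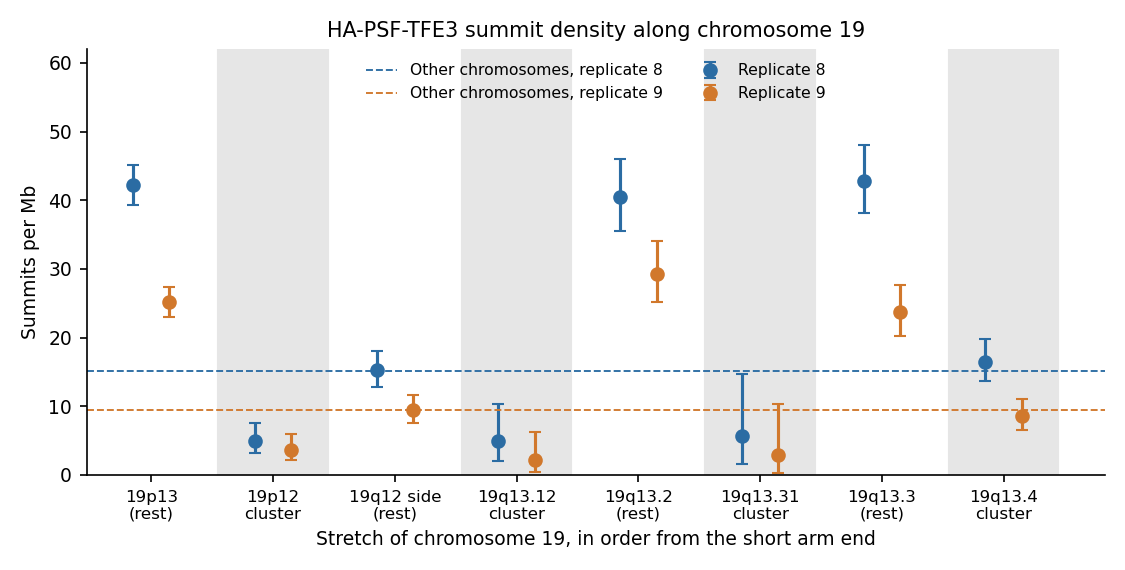
Summits per Mb (vertical axis) in 8 stretches of chromosome 19 in chromosomal order, with the 4 clusters on grey, replicate 8 in blue, replicate 9 in orange and bars for 95% exact Poisson intervals; the last 0.013 Mb is left out. Dashed lines mark the density on the other chromosomes, 15.1 and 9.44 per Mb, which 3 of the 4 clusters lie below and 19q13.4 lies close to.

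Against the genome as a whole the difference was smaller. Chromosome 19 had the highest density of all 24 chromosomes in both libraries, at 29.9 and 18.10 summits per Mb. Chromosome 17 was nearly level, at 29.6 and 18.06. Lengths were counted without each chromosome's longest summit-free stretch. The part of chromosome 19 outside the clusters was 2.39 times (95% exact interval 2.27 to 2.52) and 2.34 times (2.19 to 2.49) as dense as the other 23 chromosomes, at 15.1 and 9.44 summits per Mb. The clusters stood at 0.724 times that density in replicate 8 (0.613 to 0.850) and at 0.637 times in replicate 9 (0.507 to 0.790). Of the other 23 chromosomes, 4 in replicate 8 and 2 in replicate 9 had a lower density than the clusters.

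The 4 intervals were not alike. The 19p12 interval, 4.6 Mb long, held 23 summits in replicate 8 (5 per Mb, 95% exact Poisson interval 3.17 to 7.5) and 17 in replicate 9 (3.70 per Mb, 2.15 to 5.92). The 19q13.12 interval, 1.4 Mb, held 7 and 3, and the 19q13.31 interval, 0.7 Mb, held 4 and 2. These 3 intervals had between 0.0971 and 0.168 times the density of the rest of the chromosome, with upper bounds from 0.208 to 0.469, and their own order was not resolved because their intervals overlapped. The 19q13.4 interval, 7.1 Mb, held 117 and 61 summits, or 16.5 per Mb (13.6 to 19.7) and 8.59 per Mb (6.57 to 11.04). It was 3.30 times (2.09 to 5.40) and 2.32 times (1.34 to 4.25) as dense as 19p12, and 0.456 times (0.374 to 0.550) and 0.389 times (0.296 to 0.505) as dense as the rest of the chromosome. Its density did not differ beyond counting error from that of the other chromosomes, with ratios of 1.09 (0.902 to 1.31) and 0.910 (0.696 to 1.17).

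Among the stretches between the clusters, the 3 on 19p13, 19q13.2 and 19q13.3 held from 40.5 to 42.9 summits per Mb in replicate 8 and from 23.7 to 29.3 in replicate 9. The stretch around the centromere, between the 19p12 and 19q13.12 intervals, was the sparse one, with 15.3 (12.9 to 17.99) and 9.46 (7.59 to 11.7) per Mb. The 19q13.4 interval and this stretch did not differ beyond counting error, with ratios of 1.08 (0.838 to 1.39) and 0.908 (0.644 to 1.27).

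With all borders pooled, the change in density was sharp. Within 0.2 Mb inside a border there were 12 summits in replicate 8 (7.5 per Mb, 95% exact Poisson interval 3.88 to 13) and 7 in replicate 9 (4.38 per Mb, 1.76 to 9.01). Within 0.2 Mb outside there were 54 (42.0 per Mb, 31.6 to 54.8) and 42 (32.7 per Mb, 23.6 to 44.2). Densities from 0.5 to 1 Mb outside were 50.7 (42.9 to 59.4) and 32.7 (26.5 to 39.8) per Mb, and beyond 5 Mb they were 36.7 (33.9 to 39.7) and 22.1 (19.97 to 24.45). The intervals inside and outside the border did not overlap in either library. Deeper inside, the density was uneven. It was 12.4 and 8.10 per Mb from 0.2 to 0.5 Mb inside, and 2.92 and 2.08 from 0.5 to 1 Mb. Beyond 1 Mb inside it was 13.8 and 7.01. The first 0.2 Mb outside covered 1.285 Mb in all, against 1.6 Mb inside, and single borders were not compared.

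**Figure D2:**
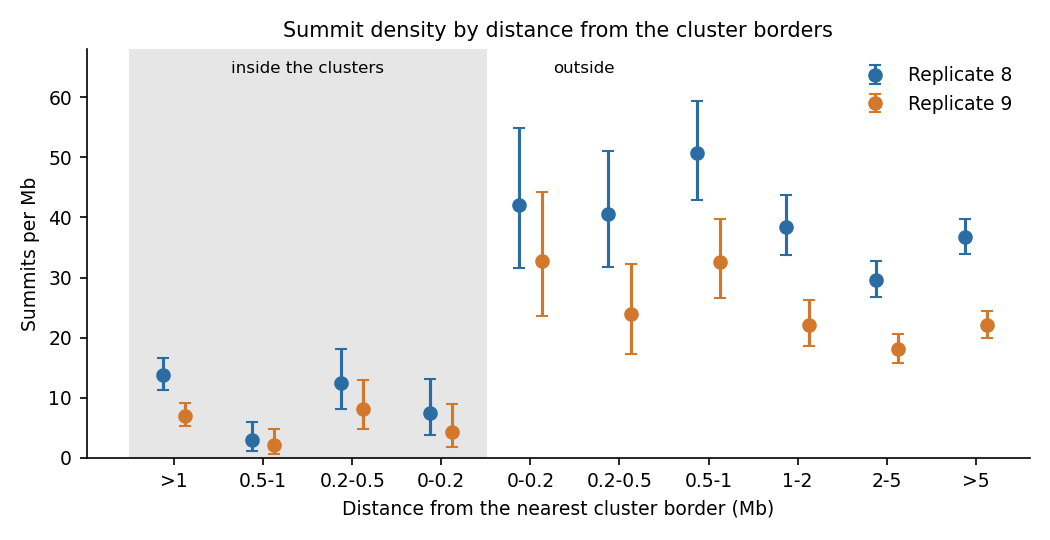
Summits per Mb (vertical axis) by distance in Mb from the nearest of the 8 cluster borders, inside on grey and outside on white, replicate 8 in blue and replicate 9 in orange, with 95% exact Poisson intervals. From the 0.2 Mb just inside a border to the first 0.2 Mb outside, the density went from 7.5 to 42.0 in replicate 8 and from 4.38 to 32.7 in replicate 9.

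Many short stretches of the clusters held no summit. Of 138 windows of 100 kb inside them, 81 were empty in replicate 8 (58.7%, 95% Wilson interval 50.4 to 66.6%) and 97 in replicate 9 (70.3%, 62.2 to 77.3%). Of 420 windows in the rest of the chromosome, 85 (20.2%, 16.7 to 24.3%) and 122 (29.0%, 24.9 to 33.6%) were empty. The differences were 38.5 percentage points (95% Newcombe interval 29.2 to 47.1) and 41.2 points (32.0 to 49.4). In windows of 500 kb fewer were empty, 4 of 26 (15.4%) in replicate 8 and 5 of 26 (19.2%) in replicate 9 in the clusters, against 2 of 82 (2.44%) in each library in the rest. The differences there were smaller, at 12.9 points (1.92 to 31.2) and 16.8 points (4.49 to 35.5). A summit absent from these lists did not pass the authors' threshold, which is not the same as absence of binding. How much of each interval can take uniquely placed reads was not tested.

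The 19p12 summits were gathered at the centromere-side end of their interval. Replicate 8 had 3 summits between 19900000 and 21000000, 2 in the next Mb, 1 in the next and 5 in the one after, then 12 in the last 0.5 Mb. Replicate 9 had 0, 2, 0, 3 and 12 in the same pieces. With counting error alone, a count of 0 still allows a few summits in a piece. The longest stretch of the interval without a summit in either library ran from 22023789 to 23284099, 1260 kb or 27.4% of its length.

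Within that end, a group of summits no more than 10 kb apart spanned 24232499 to 24260912 in replicate 8 and 24237015 to 24260921 in replicate 9. It held 11 of the 23 summits of replicate 8 and 10 of the 17 of replicate 9. Outside this group the interval held 12 and 7 summits, or 2.62 and 1.53 per Mb. The group also held the 3 best-ranked pairs of 19p12, a pair being mutually nearest summits of both libraries within 200 bp, ranked by the poorer of their genome-wide score ranks. The first lay at 24237043 in replicate 8 and 24237015 in replicate 9, and scored 28.4 (rank 3767) and 58.5 (rank 947). The second lay at 24245162 and 24245164, 2 bp apart, where replicate 8 scored 24.1 (rank 5622) and replicate 9 scored 55.7 (rank 1139). The third, at 24260912 and 24260921, scored 19.3 (rank 8346) and 40.8 (rank 2600).

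All 3 scored higher in replicate 9, as did 5 of the 6 pairs of the group, which was singled out after its values were seen. Of the other 59 pairs in the clusters, 23 (39.0%) scored higher in replicate 9. Elsewhere in 19p12 the scores ran from 2.09 to 18.1 in replicate 8 and from 5.46 to 32.9 in replicate 9.

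The 19q13.12 interval can be given in full. Replicate 8 had summits at 37019789, 37063997, 37095918, 37329043, 38121638, 38147206 and 38365518, with scores of 14.9, 5.91, 10.9, 8.61, 2.09, 2.97 and 4.73. Replicate 9 had summits at 37019812, 37822519 and 38121521, with scores of 8.01, 5.22 and 10.9. Of these, 2 pairs lay within 200 bp, 23 and 117 bp apart. Their scores ranked in opposite order, 14.9 and 8.01 at the first site and 2.09 and 10.9 at the second, whose replicate 8 summit ranked 44391 of 44983. No summit had another of its list within 10 kb, and 493 kb (35.2% of the interval), from 37329043 to 37822519, held none in either library.

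In the 19q13.31 interval replicate 8 had summits at 44303020, 44304087, 44316172 and 44439285, with scores of 8.43, 21.4, 16.4 and 4.33. Replicate 9 had summits at 44304064 and 44316245, with scores of 15.1 and 16.9. Both replicate 9 summits were paired, 23 and 73 bp from their partners. The last summit of either library was that of replicate 8 at 44439285, and the remaining 561 kb (80.1% of the interval) were without a summit in either library.

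The 19q13.4 summits were gathered in the middle of the interval. By Mb from 52000000, replicate 8 had 4, 13, 23, 32, 24, 9 and, in the last 1.1 Mb, 12 summits. Replicate 9 had 3, 3, 16, 15, 13, 4 and 7. The 3 Mb from 54000000 to 57000000, picked after the counts were seen, held 79 (67.5%) of the 117 summits of replicate 8 and 44 (72.1%) of the 61 of replicate 9. The densities there were 26.3 per Mb (95% exact Poisson interval 20.8 to 32.8) and 14.7 (10.7 to 19.7), and in the other 4.1 Mb they were 9.27 (6.56 to 12.7) and 4.15 (2.42 to 6.64). Over all 4 intervals, the same 3 Mb held 79 of the 151 members of replicate 8 and 44 of the 83 of replicate 9. Values for all clusters together thus rest largely on it. Besides zinc finger genes, 19q13.4 is known to carry the leukocyte receptor complex, with the LILR and KIR immune receptor families, and many NLRP genes. Which genes the summits fall in was not analysed here.

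Without this 3 Mb stretch the ratio of cluster to rest density was 0.184 in replicate 8 and 0.164 in replicate 9. Because the stretch was picked after its high counts were seen, a lower ratio without it follows by construction. The longest stretch of 19q13.4 without a summit ran from 53558879 to 54000721, 442 kb. The fullest group within 10 kb steps held 12 summits of replicate 8 from 54706480 to 54746962 and 8 of replicate 9 from 54707392 to 54747363, with highest scores of 44.8 and 59.4. Of these, 4 in each library were shared, that is, within 200 bp of one in the other list.

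The strongest chromosome 19 summits of replicate 8 were nonetheless in this interval. The best-ranked pair of the clusters lay at 56681798 in replicate 8 and 56681786 in replicate 9, 12 bp apart, with scores of 72.6 and 72.0. It ranked 21 in the whole replicate 8 list, first on the chromosome, and 384 in the replicate 9 list, 20 on the chromosome. The next pair, at 55700957 and 55700916, scored 49.8 (rank 419) and 55.0 (rank 1165). The third, at 53173361 and 53173430, scored 67.2 (rank 43) and 54.8 (rank 1188), and its replicate 8 score was the second highest of the chromosome. The highest replicate 8 score in the rest of the chromosome was 54.9, rank 233. In replicate 9 the rest of the chromosome reached 95.4, rank 61, above every cluster summit.

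Among the 1000 highest-scoring summits of each list, the clusters held 5 in replicate 8 and 3 in replicate 9, against 20 and 44 in the rest of chromosome 19. Among those ranked up to 5000 they held 10 and 15, against 174 and 187. These counts stand beside 151 and 83 cluster summits, 0.336% and 0.296% of the whole lists, and 1523 and 929 summits in the rest.

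The second question was whether cluster summits were weaker. The median score was 7.30 in the clusters (quartiles 4.66 and 12.8, range 1.41 to 72.6) and 8.14 in the rest of the chromosome (4.72 and 15.4, range 1.37 to 54.9) in replicate 8. In replicate 9 it was 9.41 (5.22 and 18.4, range 2.46 to 72.0) and 11.7 (6.07 and 23.3, range 1.39 to 95.4). The medians differed by -0.84 and -2.27, a mean of -1.55 ± 1.01 (SD, n = 2), so the direction was the same in both libraries and the distributions overlapped over nearly their whole range. A cluster summit scored higher than a summit of the rest in 46.8% of all such pairings in replicate 8 and 44.9% in replicate 9. The median percentile rank in the whole list was 45.2 in the clusters and 49.9 in the rest in replicate 8, and 45.7 and 54.5 in replicate 9.

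The share with a score of at least 10 was 36.4% of cluster summits and 42.2% of the rest in replicate 8, a difference of -5.80 percentage points (95% Newcombe interval -13.5 to 2.50). In replicate 9 it was 45.8% and 56.7%, a difference of -10.9 points (-21.7 to 0.19). Both intervals included 0. Among summits with a score of at least 10 the medians differed by -0.63 and -0.90, and among shared summits by -1.49 and -3.57. Without the 3 Mb in the middle of 19q13.4, picked after its counts were seen, they differed by -1.32 and -3.12. Scores are not normalized between the libraries, so these medians and shares were compared only within each, and which library scored higher at a pair is given as a description.

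The lower density held at each minimum score tried. With a score of at least 10, the clusters had 55 and 38 summits and the density ratio was 0.261 (95% exact interval 0.194 to 0.344) in replicate 8 and 0.220 (0.154 to 0.306) in replicate 9. With at least 20 they had 14 and 19, with ratios of 0.153 (0.0823 to 0.260) and 0.204 (0.121 to 0.325). With at least 30 they had 8 and 12, with ratios of 0.244 (0.103 to 0.4999) and 0.213 (0.108 to 0.382). The intervals of successive thresholds overlapped, and the summits are nested from one to the next.

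**Figure D3:**
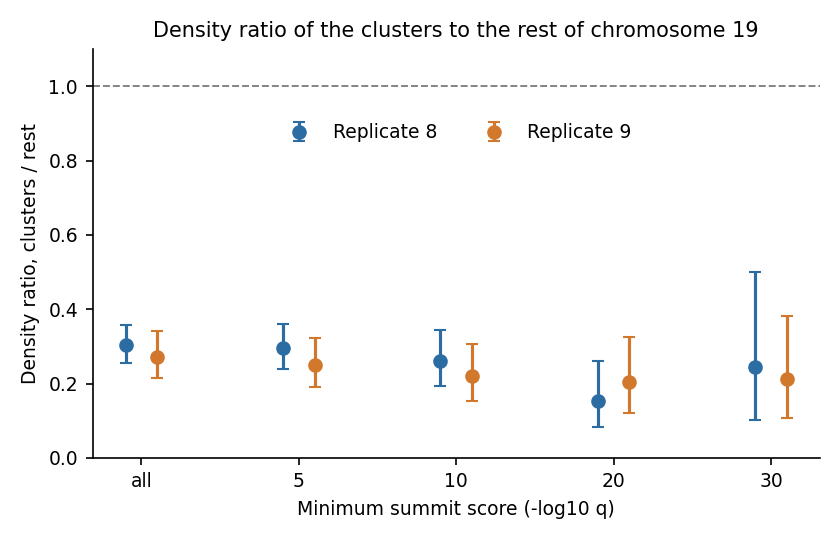
Ratio of summits per Mb in the clusters to that in the rest of chromosome 19 (vertical axis) for all summits and for summits at or above each minimum score (−log10 q), replicate 8 in blue, replicate 9 in orange, with 95% exact intervals; the dashed line marks equal density. Ratios lay between 0.153 and 0.303 and every interval lay at or below 0.4999.

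The third question was whether the libraries placed summits at the same cluster sites. Among the cluster summits of replicate 8, 66 of 151 (43.7%, 95% Wilson interval 36.1 to 51.7%) were shared, meaning that replicate 9 had one within 200 bp, against 686 of 1523 (45.04%, 42.6 to 47.6%) in the rest of the chromosome and 47.9% in the whole list. In replicate 9, 66 of 83 (79.5%, 69.6 to 86.8%) were shared with replicate 8, against 685 of 929 (73.7%, 70.8 to 76.5%) and 76.6%. The differences from the rest of the chromosome were -1.33 percentage points (95% Newcombe interval -9.39 to 7.01) and 5.78 points (-4.48 to 13.6), a mean of 2.22 ± 5.03 (SD, n = 2). Both intervals included 0, so a difference in sharing was not detectable with this number of summits. Shared sites are counted in both lists, so the 2 values are not independent and their SD is not a spread between independent libraries. With nearly equal shared counts in both lists, their opposite signs follow from the cluster and rest totals they are divided by. These totals were 151 and 1523 in replicate 8 and 83 and 929 in replicate 9.

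Density ratios of shared and unshared summits had overlapping intervals in each library. For shared summits they were 0.294 (95% exact interval 0.225 to 0.378) in replicate 8 and 0.294 (0.225 to 0.379) in replicate 9, and for unshared ones 0.310 (0.245 to 0.388) and 0.213 (0.122 to 0.348).

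Sharing rose with score in the clusters of replicate 8 as in the rest of the chromosome. The chromosome 19 summits of each library were split by score into 4 bins of nearly equal size. In the lowest bin 3 of 39 cluster summits (7.69%, 95% Wilson interval 2.65 to 20.3%) were shared, then 13 of 41 in the second (31.7%), 21 of 38 in the third (55.3%) and 29 of 33 in the highest (87.9%, 72.7 to 95.2%). In the rest of the chromosome the shares were 12.1%, 27.0%, 58.4% and 81.9%. In replicate 9 the cluster shares were 65.4% (17 of 26, 46.2 to 80.6%), 88.0% (22 of 25), 86.7% (13 of 15) and 82.4% (14 of 17, 59.0 to 93.8%), beside 56.8%, 73.7%, 80.3% and 83.5%. The interval of the clusters and that of the rest overlapped in each bin of both libraries. When the rest of the chromosome was weighted to the score deciles of the cluster summits, its share was 41.9% in replicate 8 and 72.0% in replicate 9, which left differences of 1.77 and 7.5 points.

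**Figure D4:**
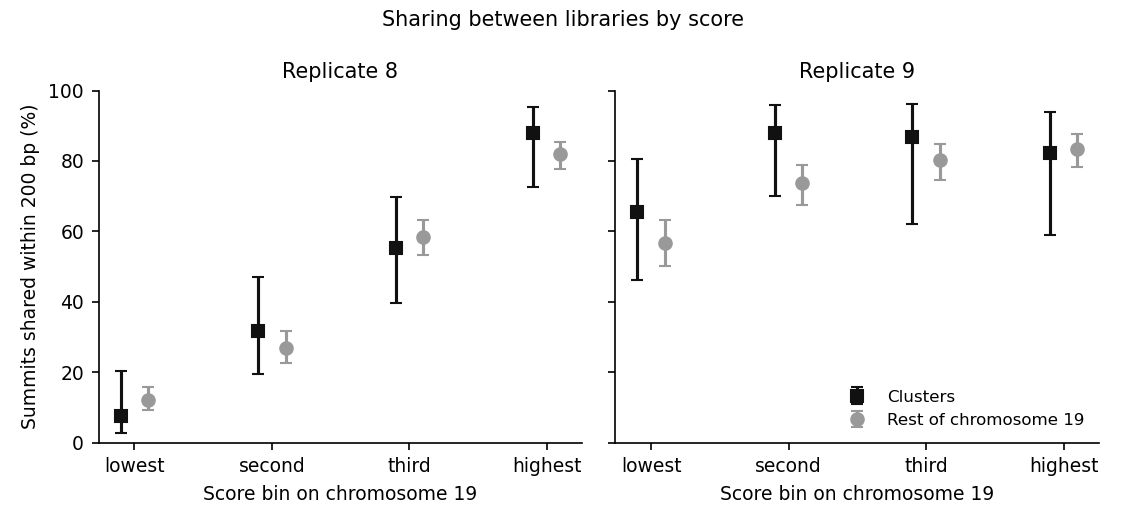
Percent of summits with a summit of the other library within 200 bp (vertical axis) in 4 bins of the chromosome 19 score of nearly equal size, replicate 8 on the left and replicate 9 on the right, clusters as black squares and the rest of the chromosome as grey circles, with 95% Wilson intervals. In replicate 8 the cluster shares ran from 7.69% in the lowest bin to 87.9% in the highest, and the intervals of clusters and rest overlapped in all bins.

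At wider distances the replicate 8 members had fewer neighbours in the other list. Of 151, 52 (34.4%, 95% Wilson interval 27.3 to 42.3%) had no replicate 9 summit within 5 kb, against 390 of 1523 (25.6%, 23.5 to 27.9%) in the rest, a difference of 8.83 percentage points (95% Newcombe interval 1.37 to 17.0). In replicate 9, 3 of 83 (3.61%, 1.24 to 10.1%) and 30 of 929 (3.23%, 2.27 to 4.57%) had no replicate 8 summit within 5 kb, a difference of 0.385 points (-2.35 to 6.94). The median score of the 52 was 5.48. The densities that set how near another summit lies, given above, differ between clusters and rest.

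The strongest such replicate 8 summit of 19p12 lay at 20188640, with a score of 9.43 and the nearest replicate 9 summit 460 kb away. In 19q13.12 it lay at 37095918, with 10.9 and 76.1 kb, in 19q13.31 at 44439285, with 4.33 and 123 kb, and in 19q13.4 at 56116219, with 12.6 and 35.3 kb. The 3 of replicate 9 lay at 24323006 (score 10.5, 62.1 kb), 37822519 (5.22, 299 kb) and 52229447 (4.08, 13.6 kb). None of the 7 ranked among the 10000 highest of its list. The best ranks were 14791 in replicate 8 (percentile 67.1 of its list) and 13834 in replicate 9 (percentile 50.6).

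The clusters held 65 pairs of mutually nearest summits, 12 in 19p12, 2 each in 19q13.12 and 19q13.31 and 49 in 19q13.4. The rest of the chromosome held 685, so that the ratio of pairs per Mb was 0.290 (95% exact interval 0.221 to 0.374). Partners lay a median of 54 bp apart (quartiles 19 and 110) in the clusters and 51 bp apart (23 and 101) in the rest, and 1 cluster pair, at 21688826 in 19p12, fell on the same base. Scores of the pairs had a Spearman's rho of 0.560 over 65 pairs in the clusters and 0.738 over 685 in the rest. These correlations are across sites that share 2 libraries and their depths, and they are given as a description. The score was higher in replicate 9 in 28 of the 65 pairs (43.1%) and in 351 of the 685 (51.2%). Both scores were at least 30 in 5 cluster pairs and 72 pairs of the rest.

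**Figure D5:**
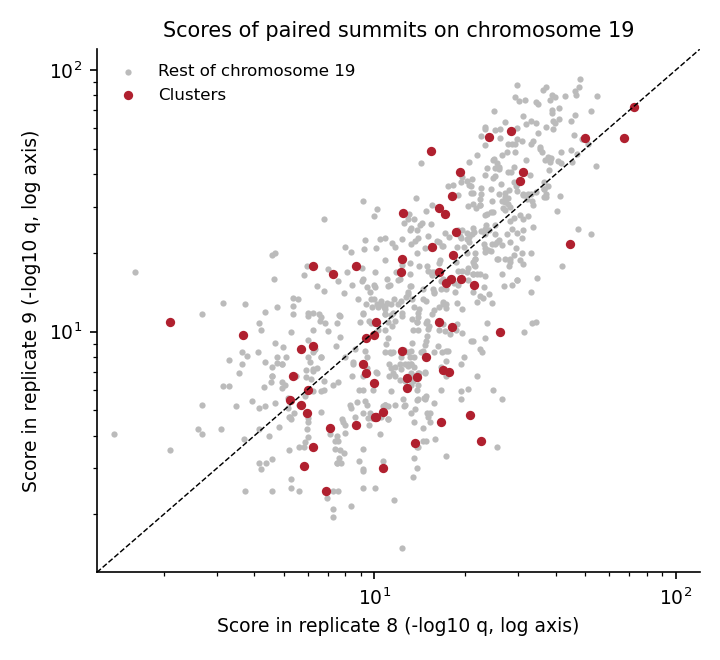
Scores (−log10 q, both axes logarithmic) of paired summits in replicate 8 (horizontal) and replicate 9 (vertical), with 65 cluster pairs in red and 685 pairs of the rest of chromosome 19 in grey; the dashed line marks equal scores. Cluster pairs spread over the cloud of the rest, with a rho of 0.560 beside 0.738, and the pair farthest right has 72.6 and 72.0.

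The lists differ in length, and the clusters followed that difference within counting error. The ratio of replicate 8 to replicate 9 summits was 1.82 in the clusters (95% exact interval 1.38 to 2.41), 1.64 in the rest of the chromosome (1.51 to 1.78) and 1.60 in the whole lists (1.58 to 1.63).

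A smaller share of cluster summits had a near neighbour in their own list, with an interval that excluded 0 in replicate 8 alone. The densities given above, 10.9 against 36.2 per Mb in replicate 8 and 6.01 against 22.1 in replicate 9, also set how near neighbours lie. Whether neighbours, distances or groups differed beyond what density gives was not tested. In replicate 8, 93 of 151 (61.6%, 95% Wilson interval 53.6 to 69.0%) had another summit of their list within 10 kb, against 71.5% of the rest, a difference of -9.91 percentage points (95% Newcombe interval -18.2 to -2.18). In replicate 9 it was 41 of 83 (49.4%, 38.9 to 59.9%) against 59.5%, a difference of -10.1 points (-21.1 to 0.89), whose interval included 0. The replicate 8 interval also included 0 with minimum scores of 5 and 10 and with the intervals narrowed by 0.2 Mb. Without the 3 Mb in the middle of 19q13.4 the differences were -18.7 and -21.1 points. That stretch was picked after its high counts were seen, so these larger differences are not separate support. The median distance to the nearest summit of the same list was 5.62 kb in the clusters and 2.93 kb in the rest in replicate 8, and 10.8 and 6.54 kb in replicate 9. Joined in steps of up to 10 kb, the cluster summits of replicate 8 formed 89 groups, 59 of them a lone summit and 3 of them of 5 or more. Those of replicate 9 formed 54, with 42 lone summits and 2 groups of 5 or more. The rest of the chromosome formed 760 and 570 groups, of which 434 and 376 were lone summits and 56 and 17 held 5 or more. Lone summits were 66.3% and 77.8% of the groups in the clusters and 57.1% and 66.0% in the rest, and the intervals of the differences, -1.70 to 18.8 and -1.45 to 21.7 points, included 0.

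Sparse stretches were not limited to the 4 intervals. Of 40 pieces of 1 Mb that lay wholly in the rest of the chromosome and outside the summit-free stretch, 4 in replicate 8 and 8 in replicate 9 held fewer than 10 summits, beside medians of 33.5 and 18. The piece from 9000000 to 10000000, on 19p13.2, held 5 and 4 summits, the fewest of the 40 in replicate 8. The zinc finger gene runs from ZNF699 to ZNF846 and from ZNF627 to ZNF791 belong to the same band. Whether either run lies in this piece was not tested, so it may not be free of zinc finger clusters. The lowest in replicate 9 was the piece from 32000000 to 33000000, with 2 summits beside 8 in replicate 8. These pieces were named after their counts were seen.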

How the data were processed

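Peak summits were analysed from 2 lists, 1 per HA-PSF-TFE3 ChIP library, and the input DNA was analysed here only as part of the authors' calls. The authors called peaks with MACS2 in each library separately against input, without pooling, at a stated q-value cutoff of 0.05, and per the labels on hg19. The deposited values are −log10 q-values at 1 bp summits. The study's descriptions also name hg38 and a p-value cutoff, but 13 and 8 chromosome 19 summits, 10 and 6 of them members, lie beyond the 58617616 bases of that chromosome in hg38. The lowest scores were 1.37 and 1.33.

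Members were found by position. Distances were computed between summits on the same chromosome, with shared meaning within 200 bp. The length of the rest of the chromosome runs to the last summit, without the longest summit-free stretch, 24571898 to 27770712. Shares have Wilson intervals, differences of shares Newcombe intervals, densities exact Poisson intervals and ratios exact conditional binomial intervals, all at 95% and for counting error only. With 1 group of ChIP libraries there was no test between conditions, and the spread between replicates may include clonal and technical differences. Alternatives tried were minimum scores, other interval bounds and distances, merged summits, equal list lengths and each library alone. The members and lists were chosen with earlier results of these data known. Named sites are, per interval, the 3 best-ranked pairs, the strongest summit of each library without another within 5 kb, the longest summit-free stretch and the fullest group. The lists do not state sequencing depth, which the study's reporting summary gives for both ChIP libraries, and it was not used here. The planned annotation and motif search at summits were not run, since the genome at hand is of another build. Promoter letters were added after the data were seen. Functions were tested on simulated lists. Python 3.11.15 was used with pandas 2.3.3 for tables, scipy 1.17.1 and numpy 2.4.6 for statistics and matplotlib 3.10.9 for plots.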

Additional observations from a re-analysis of the deposited data

How the results depend on the processing

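The density ratio of clusters to rest stayed below 1, with both libraries' intervals below 1, under every alternative run: minimum scores of 5 and 10, without the 19p12 interval, intervals narrowed by 0.2 Mb, summits under 500 bp apart merged, equal numbers of summits, the summit-free stretch kept and, added after the data were seen, without the middle of 19q13.4 and with shared summits only. It ranged from 0.174 without that middle, where the fall is by construction, to 0.355 without 19p12. Each library alone gave 0.273 to 0.303 for it, -2.27 to -0.84 for the median score difference, -1.33 to 5.78 points for sharing, 83 to 151 summits, and -10.1 to -9.91 points for neighbours within 10 kb. A minimum score of 10 lowered the mean number of cluster summits from 117 to 46.5, and leaving out the middle of 19q13.4 to 55.5, both by construction. The sharing difference turned to -3.63 points with a minimum score of 10, to -0.61 within 50 bp and to -2.10 within 500 bp, and in none of these did the intervals of both libraries exclude 0 on the same side. The difference in neighbours within 10 kb, a mean of -10.0 points, was -9.70 and -11.8 with minimum scores of 5 and 10, and -6.87 with narrowed intervals. In these 3 the interval included 0 in both libraries, while with all summits and the full intervals replicate 8 excluded it. For replicate 8 it reached from -17.3 to 2.18, from -23.6 to 1.94 and from -15.7 to 0.67. The intervals of both libraries excluded 0 without 19p12 (-10.8), within 20 kb (-14.8) and without the middle of 19q13.4 (-19.895). The cause of these moves was not tested. Clusters and rest were compared within each library. No paired analysis was possible because the 2 libraries form 1 group, with no other group that shares their numbers. The alternatives for gene starts and E-boxes at summits were not run, because the genome at hand is of another build. Sequencing depth was not used, and its part in sites found in 1 library was not tested.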
